A study of Mus musculus with 6 samples.

Results

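The BCL2 family genes were read across 6 mouse tumors as 10 rows of the deposited expression table, taken by their gene symbols whatever their values. They were the pro-survival genes Bcl2, Bcl2l1, Mcl1 and Bcl2l2 and the pro-death genes Bax, Bak1, Bid, Bbc3, Pmaip1 and Bcl2l11. These are 10 of the 21899 genes listed and 10 of the 10853 genes tested, so that no member was lost to the filter on low values. The tumors grew from luciferase-labelled Lewis lung carcinoma cells (LLC-luc), a transplantable mouse lung tumor line, placed under the skin near the armpit of adult male C57BL/6 mice. The 3 groups held 2 tumors each by the labels and the methods, although the results text of the study speaks of triplicates. Laser tumors were irradiated and, per the methods, given saline. In the PC-La group phycocyanin (PC), a light-absorbing protein of cyanobacteria used as photosensitizer, was injected at the tumor ahead of the light, and in the SePC-La group phycocyanin from selenium-enriched Spirulina (Se-PC) took its place. Per the labels the light was at 620 nm for 10 min, it followed the injection by 4 h, and injections were repeated every 5 days. The methods give another wavelength and a shorter interval between injections. All groups share the cell line, the strain, the sex and the laser, and a tumor that was not irradiated was not analysed here. No age beyond adult is given in the sources used here, and neither is whether each sample was 1 animal. The p-values thus rest on the spread between the 2 samples within groups, pooled over the 3 groups and moderated across genes.

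The BCL2 family decides whether the outer mitochondrial membrane stays closed. Its pro-survival proteins hold back the effectors BAX and BAK, which otherwise form pores that release cytochrome c and start the caspases of intrinsic apoptosis. The BH3-only proteins, such as BID, PUMA (Bbc3), NOXA (Pmaip1) and BIM (Bcl2l11), respond to stress and bind into a groove of the pro-survival proteins or act on the effectors directly.

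Both sides of the family meet through the BH3 motif, a short helix, and the stretch that codes for it is what the pro-survival and pro-death members have in common. It was searched for in the coding sequences of the mouse transcripts of GENCODE M21 as a leucine or methionine codon, 3 further codons, a glycine or alanine codon and an aspartate codon, followed by a codon for aspartate, glutamate or glycine. The pattern was written with the family known, and it was found in frame in 1408 of 22500 coding genes (6.26%). Each of the 9 members shown held it 1 time, and Pmaip1 is not reported here. The 6 core codons are in capitals, with flanking codons in lower case, 5′ to 3′.
Bcl2: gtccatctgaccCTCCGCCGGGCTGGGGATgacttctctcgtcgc
Bcl2l1: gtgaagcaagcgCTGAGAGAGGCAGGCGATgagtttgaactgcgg
Mcl1: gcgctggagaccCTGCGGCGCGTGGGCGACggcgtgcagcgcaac
Bcl2l2: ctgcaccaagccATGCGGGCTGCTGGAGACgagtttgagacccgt
Bax: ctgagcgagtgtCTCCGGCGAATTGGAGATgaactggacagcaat
Bak1: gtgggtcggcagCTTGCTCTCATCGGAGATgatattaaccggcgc
Bid: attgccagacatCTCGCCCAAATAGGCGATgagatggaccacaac
Bbc3: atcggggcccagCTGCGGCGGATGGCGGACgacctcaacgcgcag
Bcl2l11: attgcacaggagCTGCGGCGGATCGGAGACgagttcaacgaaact

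Of the 18 bases in capitals, 4 were the same in all 9 genes, and these are the bases that the search pattern itself fixes. Every pair therefore shares those 4 by the search alone, and the counts that follow include them. The closest pair was Bbc3 and Bcl2l11, which shared 15 of them, and the most distant was Bcl2l2 and Bid, which shared 5. Pairs within the pro-survival side shared 10 to 11 bases (mean 10.5 over 6 pairs), pairs within the pro-death side 8 to 15 (mean 11.2 over 10 pairs) and pairs across the sides 5 to 14 (mean 9.70 over 20 pairs). On GRCm38 the genes lie apart from each other, at chr1:106538178-106714274 for Bcl2, chr2:152780668-152831728 for Bcl2l1, chr3:95658788-95663176 for Mcl1 and chr14:54883377-54888234 for Bcl2l2. Bax lies at chr7:45461697-45466898, Bak1 at chr17:27019810-27029009, Bid at chr6:120891930-120916853, Bbc3 at chr7:16308393-16318205 and Bcl2l11 at chr2:128126038-128162547. Pmaip1 is on chromosome 18.

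The values are FPKM, fragments relative to the exon length of the gene and to all fragments counted on genes, a level per length that allows genes to be compared. The 6 libraries held between 14447792 and 17649489 counted reads, and the members rested on 62 reads (Pmaip1 in Laser replicate 2) to 6220 reads (Mcl1 in SePC-La replicate 2). The Laser pair was the least alike, with a correlation of log2 values across genes of 0.946, against 0.992 for the PC-La pair and 0.972 for the SePC-La pair. Laser replicate 2 was the highest or the lowest of the 6 tumors for 7 of the 10 members, where it was so for 41.3% of all tested genes. SePC-La replicate 1 was the highest or the lowest for 3 members and for 46.7% of all tested genes. General epithelial markers (2 of 4 past the filter) summed to 188 to 276 FPKM, with the keratin gene Krt8 between 78.1 and 114, while the lung markers (0 of 4 past it) Nkx2-1 and Scgb1a1 were at 0 in all 6 libraries and Sftpc and Sftpb reached 0.369 and 0.157 FPKM at most. In whole tumor tissue, fewer cells of a type and less RNA per cell cannot be told apart.

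Mcl1, a short-lived pro-survival protein, was by far the most abundant member at a mean of 92.6 FPKM over the 6 tumors, a level above that of 96.5% of the tested genes. Its lowest tumor, at 84.9 FPKM, was above the highest value of any other member. Bcl2l1 (BCL-XL) followed at 22.0 FPKM, then Bak1 at 17.2, Bax at 15.1, Bid at 10.2, Bcl2l11 at 9.28, Bcl2l2 (BCL-W) at 7.45, Bbc3 at 7.15, Bcl2 at 4.64 and Pmaip1 at 2.47 FPKM. Below Mcl1 every neighbor in this order overlapped the next in range over the 6 tumors. The gene that gives the family its name was thus next to last.

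Among the pro-survival genes, Bcl2 varied most. Its level was 5.44 and 2.60 FPKM in the Laser tumors, 6.41 and 7.22 in the PC-La tumors and 2.04 and 4.13 in the SePC-La tumors. Both PC-La tumors were above the other 4, and the Laser and SePC-La tumors overlapped. Within groups, Laser replicate 2 was at 0.479 times the level of replicate 1 and SePC-La replicate 2 at 2.03 times that of replicate 1.

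Bcl2l1 stood at 16.7 and 32.8 FPKM in the Laser tumors, 16.2 and 16.2 in the PC-La tumors and 26.6 and 23.5 in the SePC-La tumors. The PC-La tumors were the lowest of the 6 and almost equal, Laser replicate 1 lay just above them, and Laser replicate 2 was the highest. PC-La, highest for Bcl2, was thus lowest for Bcl2l1.

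Mcl1 was steady, at 92.6 and 93.9 FPKM in the Laser tumors, 86.0 and 84.9 in the PC-La tumors and 94.0 and 104 in the SePC-La tumors. The 3 groups did not overlap, with PC-La lowest and SePC-La highest, but the highest tumor was only 1.23 times the lowest. Bcl2l2 was at 8.78 and 6.12 FPKM in the Laser tumors, 8.99 and 8.27 in the PC-La tumors and 6.22 and 6.34 in the SePC-La tumors. SePC-La lay below PC-La in both tumors, and the Laser pair spanned the distance between them.

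Of the effectors, Bak1 had the closest replicates of all members, with a ratio of at most 1.03 between the 2 tumors of a group. It was at 14.5 and 14.9 FPKM in the Laser tumors, 16.6 and 16.7 in the PC-La tumors and 20.3 and 20.3 in the SePC-La tumors. The groups stood apart in the order Laser, PC-La, SePC-La. Means were 14.7 ± 0.313, 16.6 ± 0.0683 and 20.3 ± 0.0394 FPKM (SD, n = 2). Bax was at 15.0 and 9.89 FPKM in the Laser tumors, 16.6 and 15.9 in the PC-La tumors and 15.8 and 17.2 in the SePC-La tumors. All 4 tumors given a photosensitizer were above both Laser tumors, and the distance came mostly from Laser replicate 2. Exons of Bak1 overlap those of the antisense gene Ggnbp1, which reached a mean of 0.118 FPKM, and strand use in the counting is not given in the sources used here.

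The BH3-only genes split into those that were lower and those that were higher in Laser replicate 2. Bcl2l11, whose product BIM binds all pro-survival proteins, was at 11.7 and 6.39 FPKM in the Laser tumors, 10.7 and 11.2 in the PC-La tumors and 7.62 and 8.18 in the SePC-La tumors. Pmaip1, whose product NOXA binds mainly MCL1, was at 2.61 and 1.29 FPKM in the Laser tumors, 2.58 and 2.67 in the PC-La tumors and 2.91 and 2.77 in the SePC-La tumors. Laser replicate 2 was the lowest tumor for both, and the 62 reads behind its Pmaip1 value alone give a counting error of 12.7%.

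Bid, whose product links death receptors to mitochondria, was at 8.87 and 13.6 FPKM in the Laser tumors, 7.46 and 8.79 in the PC-La tumors and 11.3 and 10.9 in the SePC-La tumors. Bbc3, a p53 target, was at 5.60 and 9.20 FPKM in the Laser tumors, 8.07 and 7.20 in the PC-La tumors and 6.62 and 6.20 in the SePC-La tumors. Laser replicate 2 was the highest tumor for both, and PC-La and SePC-La did not overlap in either gene. Of the exons of Bid, 17.7% are shared with the antisense gene Bcl2l13, which had a mean of 5.58 FPKM. How reads of the shared part were counted is not given in the sources used here, so the level of Bid may be off in either direction.

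**Figure D1:**
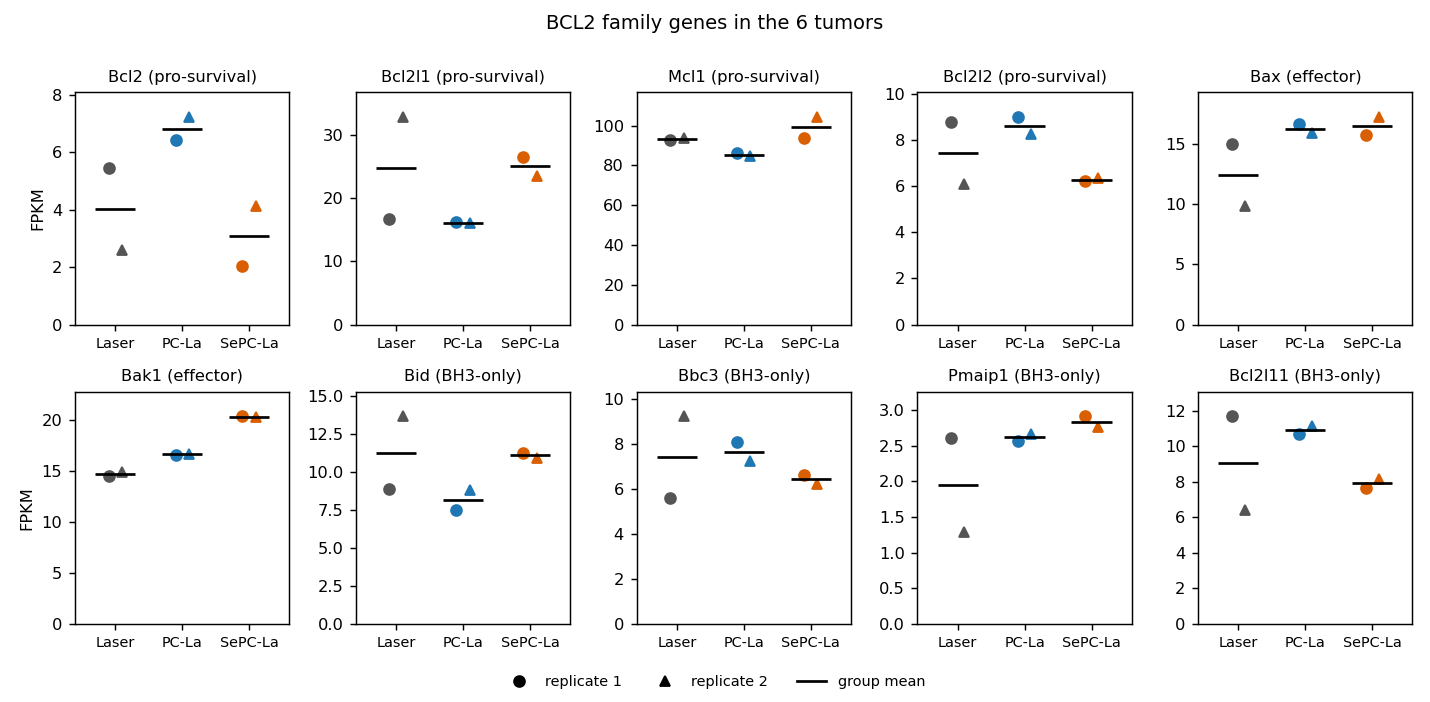
FPKM of each BCL2 family gene (vertical axes, each from 0) in the Laser, PC-La and SePC-La tumors, with circles for replicate 1, triangles for replicate 2 and a line at the group mean. Bak1 pairs lie almost on each other and step from 14.7 to 16.6 to 20.3 FPKM, whereas the 2 Laser tumors stand far apart for Bcl2, Bcl2l1, Bax, Bid, Bbc3, Pmaip1 and Bcl2l11.

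The first comparison, PC-La against Laser, asks how the tumors differed once phycocyanin was added to the light. PC-La tumors had higher Bcl2 and Bax and lower Bcl2l1 and Bid, but none of these differences exceeded the spread of the fit. At an unadjusted p under 0.05 by limma, 0 of the 10 members were called, where 5.78% of all tested genes were. The groups did not overlap for 6 members, where 42.0% of all tested genes did not, with Bcl2, Bax and Bak1 higher (3 members, 20.4% of all tested genes) and Bcl2l1, Mcl1 and Bid lower (3 members, 21.6%) in PC-La. The median log2 fold change was 0.04 over the pro-survival and 0.23 over the pro-death members, beside -0.00 over all tested genes.

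Bcl2 was 1.70 times as high in PC-La as in Laser in mean FPKM. On the log2(FPKM + 1) scale the difference was 0.70 (SE 0.35, 95% interval -0.16 to 1.55, unadjusted p = 0.0935 and adjusted p = 0.753 by limma). Bax differed by 0.39 (unadjusted p = 0.0913), Bid by -0.40 (0.0957), Bcl2l1 by -0.51 (0.132) and Bak1 by 0.17 (0.171) in the same fit. The intervals of Bcl2l2, Mcl1, Bbc3, Pmaip1 and Bcl2l11 also held 0.

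This comparison turned on Laser replicate 2. Without Laser replicate 1, which leaves only replicate 2 in that group, 7 members had an unadjusted p under 0.05 (Bcl2, Bcl2l1, Bcl2l2, Bax, Bid, Pmaip1 and Bcl2l11), while the share of all tested genes went to 24.9%. Without Laser replicate 2 the only member was Bbc3, against 3.69% of all tested genes. Such values assume that the lone sample varies like the other groups.

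SePC-La against Laser asks the same of selenium-enriched phycocyanin, with the same 2 Laser tumors. The effector gene Bak1 was 1.38 times as high in SePC-La as in Laser, and it was the only member called at an unadjusted p under 0.05, or 1 of 10 where 12.1% of all tested genes were called and 4.9% were called higher. Its log2 difference was 0.44 (SE 0.11, 95% interval 0.18 to 0.71, unadjusted p = 0.00612 and adjusted p = 0.376 by limma). Leaving out any 1 of the 6 samples kept the value between 0.42 and 0.46, with an unadjusted p of 0.0250 at most.

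The groups did not overlap for 4 members, where 40.6% of all tested genes did not. All 4 were higher in SePC-La, as were 15.0% of all tested genes, namely Mcl1, Bax, Bak1 and Pmaip1, although Mcl1 turned to -0.06 with quantile normalization. Bax differed by 0.40 (unadjusted p = 0.0802) and passed 0.05 with median-ratio scaling (0.0325), and Pmaip1 differed by 0.42 (0.119) and passed it with quantile normalization (0.0321). Bcl2 was at a mean of 3.09 ± 1.48 FPKM in SePC-La and 4.02 ± 2.00 in Laser (SD, n = 2), and its log2 difference of -0.29 had a 95% interval from -1.14 to 0.57. The median log2 fold change was -0.06 over the pro-survival members, 0.21 over the pro-death members and -0.06 over all tested genes.

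Here too the Laser tumors weighed on the count. Without Laser replicate 1, 5 members had an unadjusted p under 0.05 (Bcl2l1 lower, Bax higher, Bak1 higher, Bbc3 lower and Pmaip1 higher), beside 16.2% of all tested genes. Without Laser replicate 2, 4 members had one (Bcl2l1 higher, Bcl2l2 lower, Bak1 higher and Bcl2l11 lower), beside 19.5%. Bcl2l1 changed sides between these fits, at -0.38 and 0.56, and Bak1 was the one member called in the same direction in both.

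SePC-La against PC-La compares the photosensitizer preparations, and per the methods both agents were given at the same dose. The paper reports more selenium in Se-PC than in PC, but also less zinc, chromium and manganese. A difference between these groups therefore cannot be assigned to selenium alone. Bcl2 was at 3.09 FPKM in SePC-La and 6.82 in PC-La, a ratio of 0.453, while Bak1 was 1.22 times as high in SePC-La. These were the 2 members of 10 with an unadjusted p under 0.05, where 24.3% of all tested genes had one (9.91% higher and 14.4% lower), a share near that of all genes. The log2 difference of Bcl2 was -0.98 (SE 0.35, 95% interval -1.84 to -0.13, unadjusted p = 0.0307 and adjusted p = 0.176 by limma), and that of Bak1 was 0.27 (SE 0.11, 95% interval 0.01 to 0.54, unadjusted p = 0.0457 and adjusted p = 0.199). Bak1 missed an unadjusted p of 0.05 with no trend in the variance (0.0597), with limma voom (0.0723) and with a replicate block (0.0813), and Bcl2 missed it with that block (0.0561). With median-ratio scaling Mcl1 passed as well (0.0360), at a log2 difference of 0.32.

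The groups did not overlap for 9 of the 10 members, where 65.5% of all tested genes did not. Bcl2l1, Mcl1, Bak1, Bid and Pmaip1 were higher (5 members, 26.0% of all tested genes) and Bcl2, Bcl2l2, Bbc3 and Bcl2l11 lower (4 members, 39.5%) in SePC-La, so that each side of the family had members in both directions. The same split appeared among the pro-survival genes, since Bcl2l1 was 1.55 times as high in SePC-La (log2 difference 0.60, unadjusted p = 0.0864) where Bcl2 and Bcl2l2 (-0.40, 0.0608) were lower. Among the pro-death genes Bid differed by 0.41 (0.0914) and Bcl2l11 by -0.42 (0.139). Bax was the member that overlapped, with a difference of 0.02 and a 95% interval from -0.45 to 0.49. The median log2 fold change was -0.10 over the pro-survival members, 0.05 over the pro-death members and -0.07 over all tested genes.

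Which samples entered the fit decided how many members passed. With only the 4 samples compared, and so without the spread of the Laser pair, 6 members had an unadjusted p under 0.05 (Bcl2, Bcl2l1, Bcl2l2, Bak1, Bid and Bcl2l11), beside 33.4% of all tested genes. In that fit Bcl2l1 reached an adjusted p of 0.0495, one of 637 genes under 0.05, and over all alternatives its adjusted p lay between 0.0483 and 0.629. Leaving out either Laser sample also removes the spread of the Laser pair. Those fits nearly repeat the fit of the 4 compared samples and add no separate support. Without PC-La replicate 1, PC-La replicate 2 or SePC-La replicate 1 no member passed, at 8.07, 9.48 and 11.5% of all tested genes, and without SePC-La replicate 2 Bcl2 alone did, at 23.5%. The difference of Bcl2 was -0.60 without SePC-La replicate 1 and -1.36 without SePC-La replicate 2.

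**Figure D2:**
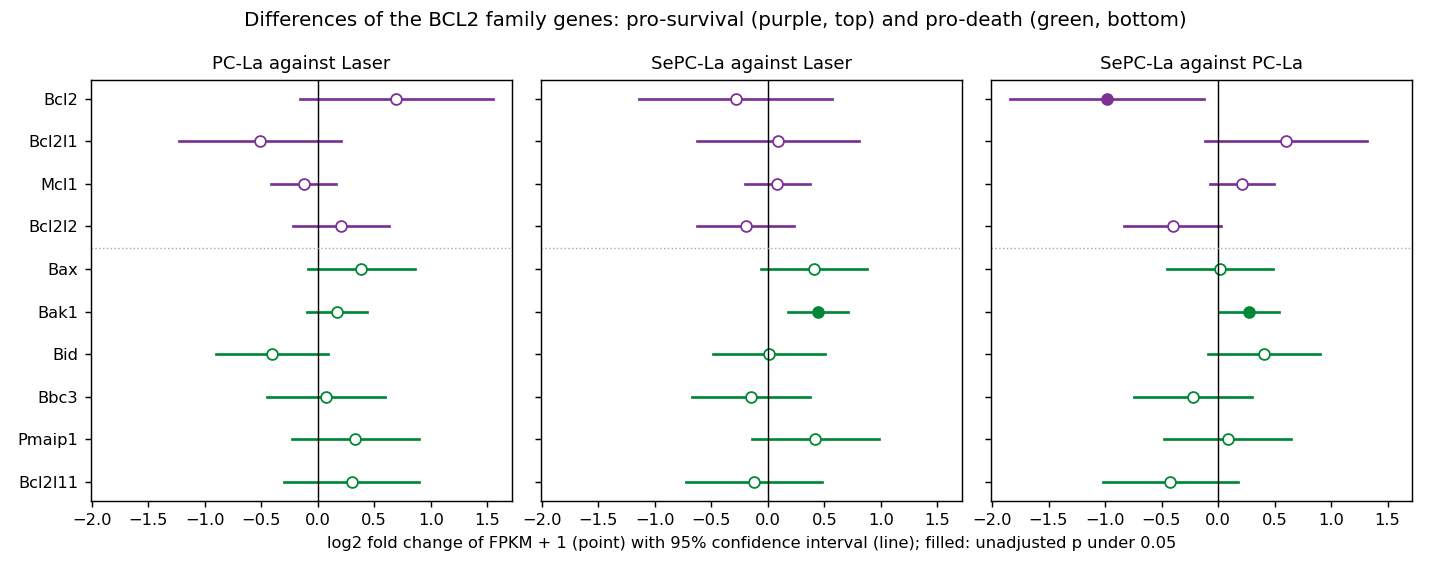
Log2 fold change of FPKM + 1 (horizontal axes) with its 95% interval for each member in the 3 comparisons, pro-survival genes in purple above the dotted line, pro-death genes in green below it, and filled points for an unadjusted p under 0.05. The filled points are Bak1 in SePC-La against Laser and Bcl2 and Bak1 in SePC-La against PC-La, and the intervals of Bcl2 are the widest.

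After Benjamini-Hochberg adjustment by limma over all 10853 genes, 0 members had an adjusted p under 0.05 in any of the 3 comparisons, as did 0.0% of all tested genes in each. At an unadjusted p under 0.05 the counts of members were 0, 1 and 2, beside 5.78%, 12.1% and 24.3% of all tested genes. Limma voom on the recovered reads gave 0, 1 and 1, beside 5.86%, 13.2% and 23.7%. The study's criterion was an absolute log2 fold change over 1 with an unadjusted p under 0.05. On the log2(FPKM + 1) scale 0 members met it in each comparison, against 1.29%, 0.682% and 2.98% of all tested genes. The study applied it to fold changes from DESeq, and the scale used here understates fold changes of low genes. Bcl2 in SePC-La against PC-La, at -0.98 (unadjusted p = 0.0307 by limma) and a ratio of mean FPKM of 0.453, fell just short of it on this scale. With 0.1 added to FPKM in place of 1, its absolute log2 difference was over 1 and its unadjusted p stayed under 0.05 by limma. Bcl2 then met the criterion, so this result depends on the scale. An exact permutation test of 2 tumors against 2 cannot go below a two-sided p of 0.333, so none is given for single genes.

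Summed over each side, the pro-survival genes reached 124 and 136 FPKM in the Laser tumors, 118 and 117 in the PC-La tumors and 129 and 138 in the SePC-La tumors. The pro-death genes reached 58.2 and 55.3, then 62.0 and 62.4, then 64.5 and 65.5 FPKM. The pro-death sum thus stood in the order Laser, PC-La, SePC-La with no overlap, while the pro-survival sum was lowest in PC-La. Most of the step in the pro-death sum came from the effectors, which added to 29.5 and 24.8, then 33.2 and 32.6, then 36.1 and 37.5 FPKM, whereas the 4 BH3-only genes together stayed between 28.0 and 30.5 FPKM in all 6 tumors.

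The ratio of pro-death to pro-survival FPKM was 0.471 and 0.408 in the Laser tumors, 0.527 and 0.536 in the PC-La tumors and 0.501 and 0.474 in the SePC-La tumors. Group means were 0.440 ± 0.0445, 0.531 ± 0.00587 and 0.487 ± 0.0187 (SD, n = 2). PC-La was highest, SePC-La lay between, and the gap from its lower tumor to the upper Laser tumor was small. Quantile normalization reversed the order of the photosensitizer groups, at 0.513 for PC-La and 0.522 for SePC-La. Mcl1 made up 69.3 to 75.4% of the pro-survival sum in every tumor, so this ratio is mostly one of the pro-death genes to Mcl1. Without Mcl1 it was 1.88 and 1.33 in the Laser tumors, 1.96 and 1.97 in the PC-La tumors and 1.85 and 1.93 in the SePC-La tumors.

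Bax over Bcl2, a ratio often used for the same balance, gave another order. It was 2.76 and 3.80 in the Laser tumors, 2.60 and 2.20 in the PC-La tumors and 7.73 and 4.17 in the SePC-La tumors. SePC-La was highest and PC-La lowest, and since Bax differed little between these groups the distance came from Bcl2. The ratio of Bcl2l1 to Bcl2 spread even more, from 2.24 in PC-La replicate 2 to 13.1 in SePC-La replicate 1, with 12.6 in Laser replicate 2. These ratios are descriptions of 2 tumors a group and were given no test.

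**Figure D3:**
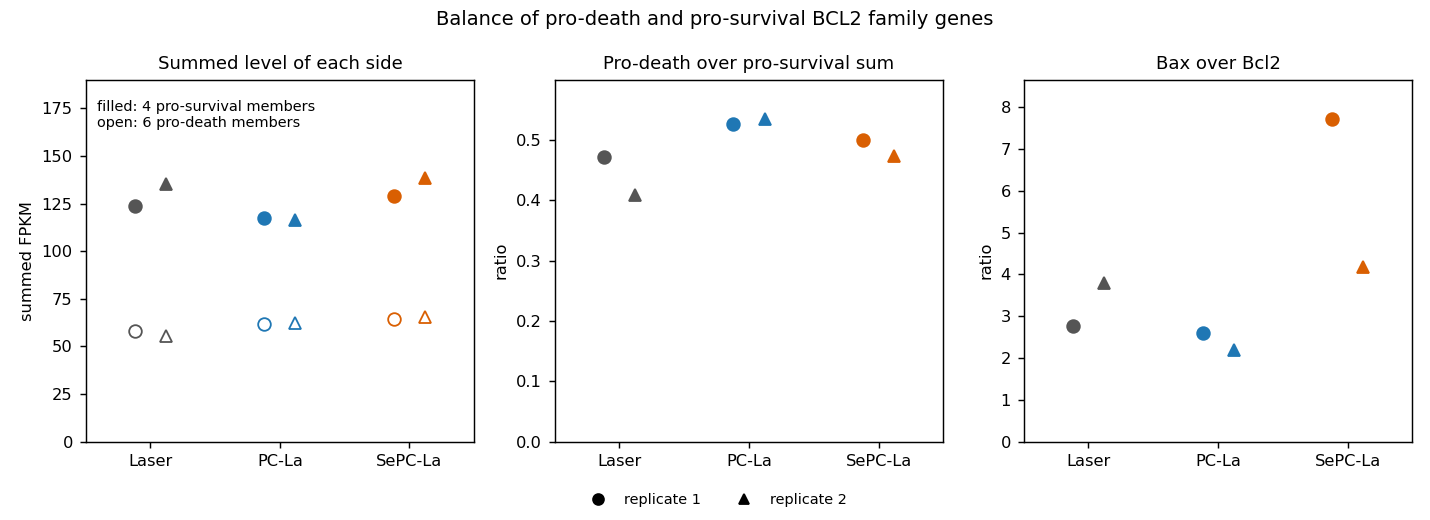
Summed FPKM of the pro-survival (filled) and pro-death (open) genes, the ratio of the pro-death to the pro-survival sum, and the ratio of Bax to Bcl2 in each tumor, with circles for replicate 1, triangles for replicate 2 and all vertical axes from 0. The ratio of sums is highest in PC-La (0.527 and 0.536), whereas Bax over Bcl2 is highest in SePC-La (7.73 and 4.17).

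Sums of some cell type markers moved partly along with Bcl2. Fibroblast markers (Col1a1, Col1a2, Dcn and Pdgfra, all 4 past the filter) summed to 228 and 34.0 FPKM in the Laser tumors, 404 and 301 in the PC-La tumors and 22.5 and 135 in the SePC-La tumors. Bcl2 and this sum put the tumors in the same order except for the places of the PC-La replicates, with SePC-La replicate 1 lowest and Laser replicate 2 next. The sum was mostly Dcn, which alone was at 365 of the 404 FPKM in PC-La replicate 1. Col1a1 (23.2 FPKM) and Col1a2 (10.1) were instead highest in SePC-La replicate 2 and lowest in Laser replicate 2 (1.91 and 0.944), so that these markers did not follow Bcl2. None of the 4 fibroblast markers had an unadjusted p under 0.05 in any comparison by limma, where 5.78%, 12.1% and 24.3% of all tested genes had one. T and NK cell markers (4 of 7 past the filter) summed to 19.1 to 25.2 FPKM in Laser, 28.6 to 47.3 in PC-La and 16.4 to 34.2 in SePC-La, and macrophage markers (6 of 6) to 556 to 584, 754 to 802 and 327 to 617. In SePC-La against PC-La, where Bcl2 was called lower, 3 of the 6 macrophage markers were lower and 0 higher at an unadjusted p under 0.05 by limma. Of all tested genes 14.4% were lower and 9.91% higher. The 3 were Csf1r (-0.78, 0.0499), C1qa (-1.01, 0.0204) and C1qb (-0.95, 0.0170), whereas Mrc1 (0.28, 0.558) and Cd68 (0.31, 0.166) had differences of the other sign. Of B cell markers 0 of 4 passed the filter, with sums of at most 1.33 FPKM. The part of these cells in the level of Bcl2 was not tested.

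Bak1 ran partly with other lists. Erythroid markers (5 of 5 past the filter) summed to 127 and 13.6 FPKM in the Laser tumors, 263 and 361 in the PC-La tumors and 613 and 932 in the SePC-La tumors, the group order of Bak1. Neutrophil markers (6 of 7) summed to 161 and 34.4, then 156 and 91.1, then 337 and 461 FPKM. Within the Laser pair these lists were far lower in replicate 2, where Bak1 was slightly higher. Skeletal muscle markers (4 of 5) were at 14.7 and 108 FPKM in Laser and at 3.67 or less in the other 4 tumors, with Acta1 at 46.4 FPKM in Laser replicate 2, the tumor at the end of the range for 7 members. Endothelial markers (3 of 4) summed to 14.1 to 26.8 FPKM and proliferation markers (4 of 4) to 157 to 190 over the 6 tumors. The part of these cells in the levels of Bak1 and the other members was not tested.

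**Figure D4:**
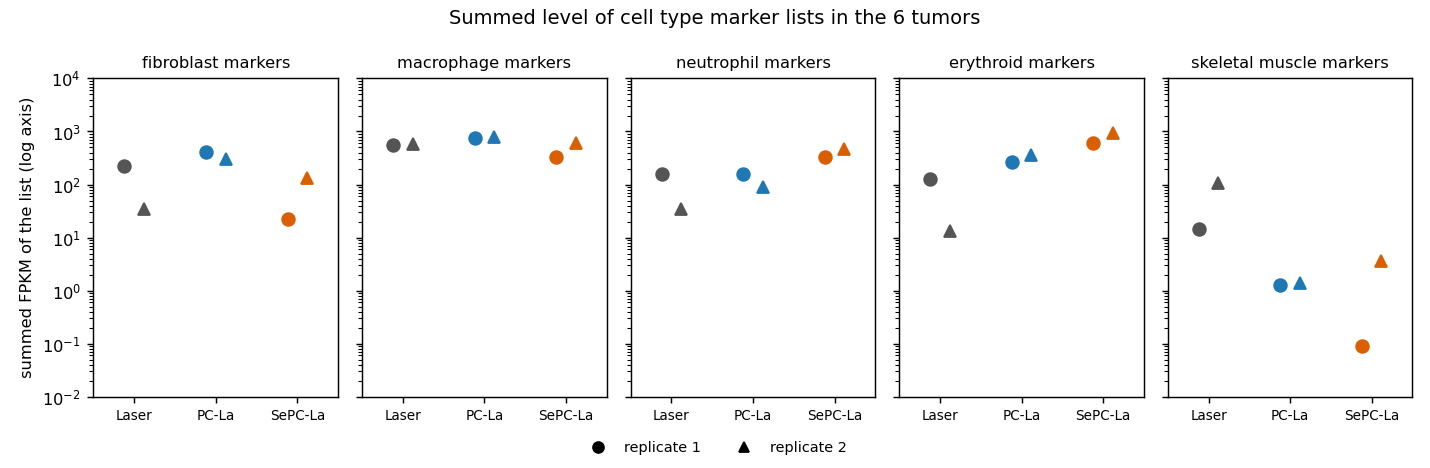
Summed FPKM of 5 marker lists (shared log axis) in each tumor, with circles for replicate 1 and triangles for replicate 2. The fibroblast sum, mostly Dcn, is highest in PC-La (404 and 301) and lowest in SePC-La replicate 1 (22.5), erythroid markers are highest in SePC-La (613 and 932), and muscle markers are highest in Laser replicate 2 (108).

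Other genes of the family were measured beside the 10 members. Of 15 named, 10 passed the filter, Bcl2l10 and Hrk were at 0 in all tumors, and Bcl2a1b, Bik and Bcl2l14 were under it. In PC-La against Laser 2 of the 10 had an unadjusted p under 0.05 and 0 were lower, where 3.38% of all tested genes were called higher, and both were copies of the pro-survival gene A1. Bcl2a1a was at 4.58 and 2.70 FPKM in the Laser tumors, 8.28 and 11.1 in the PC-La tumors and 5.16 and 4.27 in the SePC-La tumors, and its difference from Laser to PC-La was 1.22 (SE 0.24, unadjusted p = 0.00185 and adjusted p = 0.445 by limma). Bcl2a1d differed by 0.86 (0.0243). The Bcl2a1 copies are nearly identical, so how reads were divided among them is uncertain.

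Bnip3, a hypoxia-induced mitophagy receptor with a BH3-like stretch, was the 1 gene of the 10 called in SePC-La against Laser, where 12.1% of all tested genes were called and 4.9% were called higher, a count near that share. It was at 19.9 and 18.7 FPKM in the Laser tumors, 20.7 and 14.4 in the PC-La tumors and 38.6 and 32.6 in the SePC-La tumors. Both SePC-La tumors stood above the other 4. The log2 difference was 0.85 against Laser (unadjusted p = 0.00359, adjusted p = 0.376) and 1.00 against PC-La (0.00153, 0.126) by limma.

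In SePC-La against PC-La 1 gene of the 10 was higher (Bnip3) and 2 were lower at an unadjusted p under 0.05, near the 9.91% and 14.4% of all tested genes. Bmf, a BH3-only gene, was at 4.70 and 1.82 FPKM in the Laser tumors, 6.63 and 4.29 in the PC-La tumors and 0.501 and 2.16 in the SePC-La tumors, a log2 difference between SePC-La and PC-La of -1.54 (SE 0.48, unadjusted p = 0.020, adjusted p = 0.155 by limma). Its low tumors were those of Bcl2, namely SePC-La replicate 1 and Laser replicate 2. Bcl2a1a was lower by 0.90 on the log2 scale (95% interval -1.47 to -0.32). The median difference over the 10 genes was -0.14, beside -0.07 over all tested genes. In the comparisons with Laser it was 0.05 for PC-La and 0.03 for SePC-La.

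Downstream of the pore, 11 of 12 genes of the apoptosome, the caspases and their inhibitors passed the filter, and Diablo did not. In PC-La against Laser 0 of the 11 had an unadjusted p under 0.05 by limma, where 5.78% of all tested genes had one. In SePC-La against Laser 3 were higher and 3 were lower, where 4.9% and 7.24% of all tested genes were. The inhibitor genes Xiap (difference -0.43, unadjusted p = 0.0121) and Birc2 (-0.41, 0.0479) and the apoptosome scaffold Apaf1 (-0.36, 0.0220) were lower, and cytochrome c (Cycs, 0.30, 0.0405), Casp6 (0.45, 0.0363) and Birc5, which encodes survivin (0.33, 0.0340), were higher.

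Against PC-La, Apaf1 (-0.51, unadjusted p = 0.00473), Xiap (-0.39, 0.0175) and Birc2 (-0.50, 0.0234) were lower and Birc5 (0.45, 0.0103) higher in SePC-La, or 3 and 1 of the 11 where 14.4% and 9.91% of all tested genes were. Apaf1 was at 9.22 and 9.51 FPKM in the Laser tumors, 10.2 and 10.7 in the PC-La tumors and 6.92 and 7.24 in the SePC-La tumors. Xiap was at 13.0 and 12.5, then 12.0 and 12.9, then 8.77 and 9.68 FPKM. For both genes the SePC-La tumors were below the other 4. Genes that promote and genes that block caspases were thus among the lower ones. The median difference of the list was 0.08, 0.04 and -0.24 in the 3 comparisons, beside -0.00, -0.06 and -0.07 over all tested genes.

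The VDAC genes encode the channels of the outer membrane, and VDAC2 holds BAK there. All 3 passed the filter. Vdac2 was at 51.2 and 56.1 FPKM in the Laser tumors, 44.5 and 46.9 in the PC-La tumors and 65.3 and 62.9 in the SePC-La tumors, and Vdac1 at 85.8 and 84.6, then 72.9 and 72.6, then 105 and 95.9 FPKM. For both, PC-La was lowest and SePC-La highest with no overlap. In SePC-La against PC-La they were 2 genes of 3 higher and 0 were lower at an unadjusted p under 0.05, where 9.91% and 14.4% of all tested genes were, with differences of 0.48 (unadjusted p = 0.00570) and 0.46 (0.00670) by limma. Against Laser 0 of the 3 passed in either comparison. The values were -0.23 (0.0981) for Vdac1 and -0.23 (0.101) for Vdac2 in PC-La. In SePC-La the corresponding values were 0.23 (0.0888) for Vdac1 and 0.25 (0.0714) for Vdac2. Medians over the 3 genes were -0.23 and 0.23 against Laser and 0.46 against PC-La.

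The 4 enzymes that set the turnover of the MCL1 protein gave 0 calls in all 3 comparisons by limma at an unadjusted p under 0.05, where 5.78%, 12.1% and 24.3% of all tested genes were called, so that few calls could come from 4 genes. The smallest p-values were those of Btrc (0.09, 0.587) and Huwe1 (-0.07, 0.764) in PC-La against Laser, Usp9x (-0.29, 0.110) and Huwe1 (-0.33, 0.187) in SePC-La against Laser, and Btrc (-0.28, 0.122) and Usp9x (-0.27, 0.133) in SePC-La against PC-La. Medians were -0.03, -0.24 and -0.27.

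Transcription factors that switch on BH3-only genes were measured with 5 of 7 past the filter, and Trp73 and Foxo1 were under it. In PC-La against Laser 0 passed an unadjusted p under 0.05, and the nearest were E2f1 (-0.16, 0.233) and Trp53 (-0.11, 0.396). Ddit3 (CHOP), which acts in endoplasmic reticulum stress, was at 6.31 and 5.06 FPKM in the Laser tumors, 6.46 and 5.46 in the PC-La tumors and 13.7 and 8.29 in the SePC-La tumors. Atf4, its upstream factor, was at 114 and 112, then 90.2 and 122, then 201 and 170 FPKM. Both were highest in the 2 SePC-La tumors.

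Ddit3 and Atf4 were the 2 genes of this list higher in SePC-La than in Laser at an unadjusted p under 0.05, by 0.81 (0.0134) and 0.70 (0.00677), with 0 lower, or 2 of 5 where 4.9% of all tested genes were higher. Against PC-La 3 of 5 were higher, where 9.91% of all tested genes were, and 0 lower, namely Ddit3 (0.75, 0.0186), Atf4 (0.81, 0.00339) and Trp53 (0.33, 0.0306), with adjusted p-values of 0.152, 0.126 and 0.176 by limma. Medians over the 5 genes were -0.11, 0.22 and 0.33 in the 3 comparisons. The 4 BH3-only members divided between the directions, and 0 of them were called in this comparison. Bbc3 and Bcl2l11 were lower in both SePC-La tumors than in both PC-La tumors, while Bid (0.41, unadjusted p = 0.0914) and Pmaip1 were higher.

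**Figure D5:**
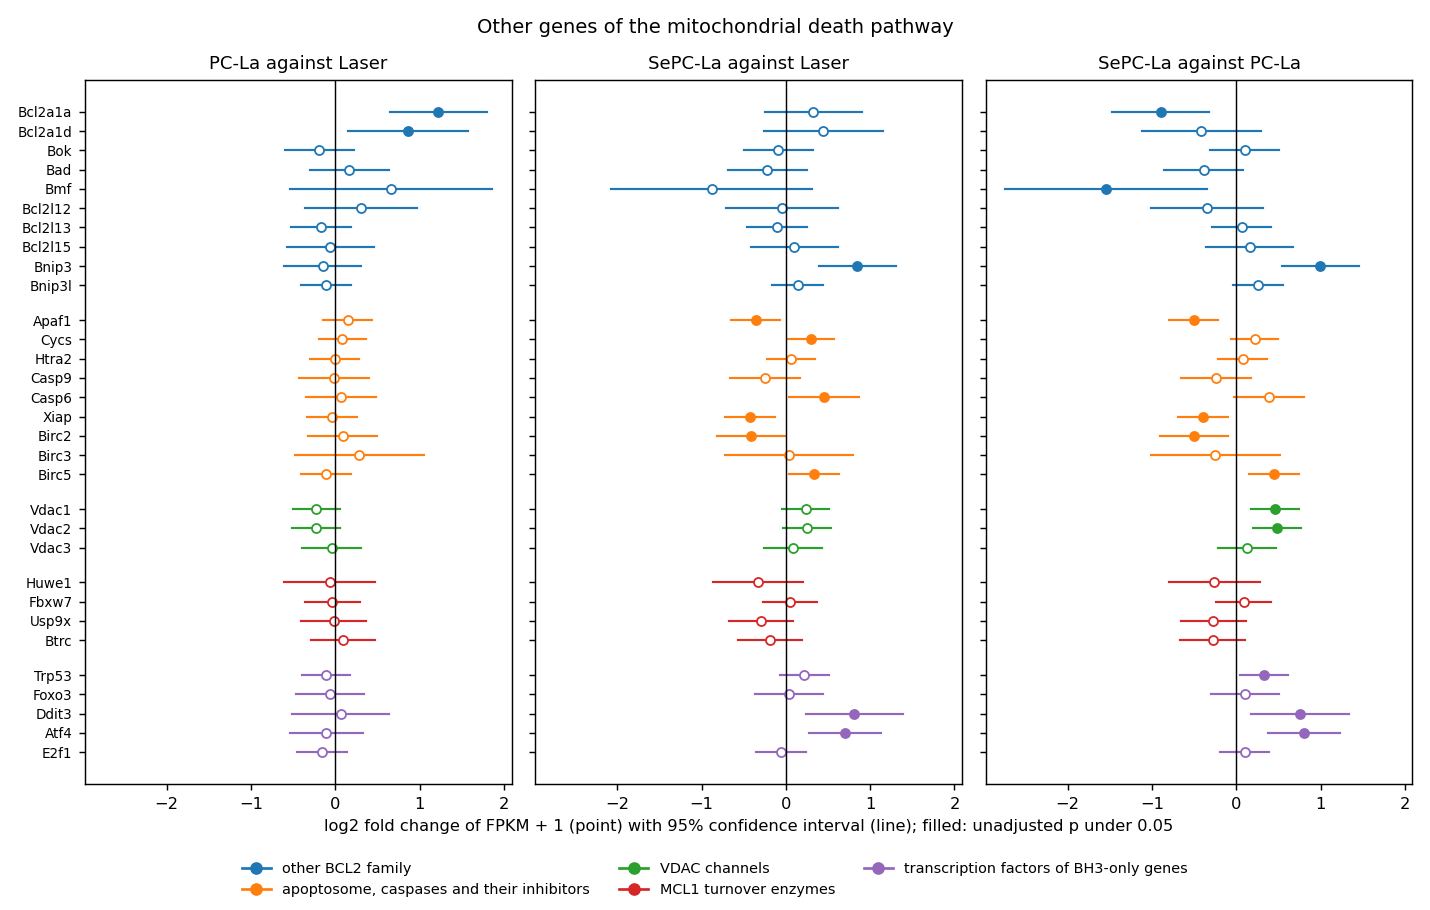
Log2 fold change of FPKM + 1 (horizontal axes) with its 95% interval for other genes of the mitochondrial death pathway in the 3 comparisons, colored by list, with filled points for an unadjusted p under 0.05. In PC-La against Laser only Bcl2a1a (1.22) and Bcl2a1d (0.86) are filled, while in SePC-La against PC-La Bnip3 (1.00) is the highest filled point and Bmf (-1.54) the lowest.

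Genes whose pattern over the 6 tumors was most like that of a member were listed by Pearson's r of log2(FPKM + 1), as a description. For Bcl2 these were Cd81, a tetraspanin (r = 0.997), Cxxc5 (0.996) and Gask1b (0.996), and 1055 of the other 10852 tested genes had an r of 0.9 or more. For Mcl1 they were 1110008P14Rik (0.989), Pgd (0.983) and Mxd3 (0.981), with 118 genes at 0.9 or more. For Bak1 they were Coq3 (0.991), Ciao2b (0.977) and Ankrd37 (0.964), with 91 genes. Bcl2 thus varied along a pattern that many genes followed, whereas those of Mcl1 and Bak1 were shared by fewer. Cd81 was at 40.3 and 19.3 FPKM in the Laser tumors, 50.1 and 51.8 in the PC-La tumors and 15.4 and 31.7 in the SePC-La tumors, and the 6 points share their libraries.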

How the data were processed

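RNA of 6 tumors was sequenced by the authors, who deposited 1 table with a value for each gene and sample. Its unit is not given in the sources used here. The deposited values are FPKM, since their product with the merged exon lengths of GENCODE M21 (GRCm38) was a whole read count, within 0.02 reads, in all 6 samples for 97.77% of expressed genes. The submitters' processing notes name HISAT2 2.0.5, HTSeq 0.9.1, DESeq 1.30.0 and the build mm9. For 53 genes no exon length was found. Every column was used. Groups and replicate numbers came from the sample titles.

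Members were matched by symbol, as were the pathway and marker lists. Members and lists were chosen with earlier results of these data known. The 10853 genes whose mean FPKM was 1 or more were compared on log2(FPKM + 1), a scale that understates fold changes of low genes, by limma (version 3.58.1, under R 4.3.3). All 6 samples entered one fit with a mean per group and moderation with trend and robust estimation (6.40 degrees of freedom for most genes). P-values were adjusted by Benjamini-Hochberg over all tested genes, and the fit was tested on simulated data. All 10 members are named. Genes of the pathway lists are named if their absolute log2 fold change was over 1 at an unadjusted p under 0.05 in a comparison, or else as the 2 with the smallest p, and the others printed were chosen after their values were seen, so that every small count is named. The 3 genes most like Bcl2, Mcl1 and Bak1 are given, the last 2 as the most abundant member of each side. The median depth was 15673397 reads, and counting error is that of a Poisson count. The replicate numbers were not used to pair the samples in the main fit. The alternatives were another pseudocount, other filters and scalings, other moderation, the 4 compared samples alone, a replicate block, limma voom on the recovered reads and each sample left out in turn. Other steps used Python 3.11.15 with pandas 2.3.3, matplotlib 3.10.9 and NumPy 2.4.6. Values of 2 listed pathway genes are not reported or drawn here, but both genes count in the totals of their list.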

Additional observations from a re-analysis of the deposited data

How the results depend on the processing

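Of 294 values of the members' log2 fold changes under alternatives that kept all samples of a comparison, 281 kept their direction and their side of an unadjusted p of 0.05, 7 crossed it to the called side, 4 lost it and 2 turned, namely Mcl1 (-0.058 with quantile normalization) and Bid (-0.000262 with voom), both in SePC-La against Laser. Counts of genes with an unadjusted p under 0.05 moved by over 1.5 times in PC-La against Laser to 975 with no filter and 403 with a minimum of 5 FPKM, as more or fewer genes were tested, and in SePC-La against Laser to 700 with only the 4 samples compared. Counts of members, given with the share of all tested genes called in the same fit, became 2 with median-ratio scaling (11.7%) and 2 with quantile normalization (9.43%) in SePC-La against Laser. In SePC-La against PC-La they became 1 with a minimum of 5 FPKM (25.2%), where Bcl2 and Pmaip1 have no value. They were 1 with no trend (23.9%) and 1 with voom (23.7%), with Bak1 lost in both, and 0 with the replicate block (18.7%). With median-ratio scaling there were 3 (23.9%, Mcl1 added), and 6 in the fit of the 4 samples compared alone (33.4%). Apart from those stated, the cause was not tested. Of the called genes, 40.4% were higher in SePC-La than in Laser, and 63.9% with median-ratio scaling or 53.4% with quantile normalization. Against PC-La these shares were 40.8, 58.2 and 52.4%. No scaling moved the median of all genes by over 0.1.

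The replicate block left 452, 938 and 2026 genes called in the 3 comparisons, against 627, 1318 and 2637, and Bcl2 and Bak1 in SePC-La against PC-La then had unadjusted p-values of 0.0561 and 0.0813. Deviations of same-numbered samples correlated at 0.0862 (Laser and PC-La), -0.428 (Laser and SePC-La) and -0.177 (PC-La and SePC-La). Same-numbered samples thus did not clearly deviate in the same direction. Whether samples shared a batch or handling cannot be read from these values and was not tested.

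With each sample left out in turn, called genes ranged from 204 to 2700 in PC-La against Laser, from 694 to 2121 in SePC-La against Laser and from 876 to 3636 in SePC-La against PC-La, and called members from 0 to 7, from 1 to 5 and from 0 to 6. Log2 fold changes that turned ranged, in PC-La against Laser, from -0.024 to 0.43 for Bcl2l2, from -0.24 to 0.39 for Bbc3 and from -0.090 to 0.69 for Bcl2l11. In SePC-La against Laser they ranged from -0.70 to 0.13 for Bcl2, from -0.38 to 0.56 for Bcl2l1, from -0.43 to 0.032 for Bcl2l2, from -0.28 to 0.29 for Bid, from -0.46 to 0.17 for Bbc3 and from -0.51 to 0.27 for Bcl2l11, and in SePC-La against PC-La from -0.043 to 0.078 for Bax. The ratio of pro-death to pro-survival FPKM was replaced by Bax over Bcl2 at 3.28, 2.40 and 5.95 in Laser, PC-La and SePC-La, and quantile normalization gave 0.513 and 0.522 in the last 2. Depth limits Pmaip1 most, at 62 to 132 reads, and 2 samples a group limit every comparison.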
